A study of Mus musculus with 9 samples.

Results

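The 37 genes described here are a fixed list of interferon-stimulated genes, that is, genes whose transcription rises when a cell senses interferon, and they were matched by symbol to the gene rows of the count matrices. A row was found for 35 of the 37, out of 32285 genes in all, and no row matched Mx1 or Mx2, which were not analysed here. Their unique molecular identifiers (UMIs, each standing for 1 captured RNA molecule) were read in single-nucleus RNA sequencing of epididymal adipose tissue (epiAT), a visceral fat depot, from male C57BL/6J mice. There were 9 libraries, 1 for each diet group, and each pooled the nuclei of 5 mice. No group thus has a replicate of its own.

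The chow groups were C (18 weeks old), CC (26 weeks) and CCC (39 weeks). The obese groups were H (12 weeks of high-fat diet, HFD, 18 weeks old) and HH (25 weeks of HFD, 31 weeks old). The weight-loss (WL) groups were HC (12 weeks of HFD, then 8 weeks of chow, 26 weeks old) and HHC (25 weeks of HFD, then 8 weeks of chow, 39 weeks old). A first HFD of 4 weeks was given to older chow-fed mice in CCH. In HCH a renewed HFD of 4 weeks followed 12 weeks of HFD and 8 weeks of chow. Both were 30 weeks old. By the study's methods, the control diet of C was low in fat, while CC and CCC ended on a standard chow. The sample labels put C, H, HH, CCH and HCH in a sequencing set named S075 and CC, CCC, HC and HHC in one named S019, so both obese libraries are of one set and both WL libraries of the other.

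Interferons bind receptors that activate the JAK kinases and the STAT transcription factors. STAT2 and IRF9 are parts of a complex that binds the interferon-stimulated response element (ISRE) in the promoters of these genes, and their products sense foreign nucleic acids, block translation, degrade RNA, or tag proteins with ubiquitin-like chains. Macrophages are the main immune cells of adipose tissue, where perivascular macrophages (PVMs) are resident cells and lipid-associated macrophages (LAMs) gather around dying adipocytes in obesity.

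Library totals ran from 22599619 to 66615262 UMIs over 91687 barcodes, and 76356 nuclei had 500 to 3000 detected genes and at most 40000 UMIs. A nucleus was placed in a cell class when it had at least 2 of that class's 8 gate markers and the class with the next most had no more than 1 for every 2 of its own. That placed 47174 nuclei. Another 27332 (35.8%, from 24.25% in H to 58.1% in CC) carried markers of a second class and were left out, which is also how doublets were treated. Macrophage-gated nuclei numbered 17014, from 49 in CC to 4248 in H, and their summed counts ran from 167643 UMIs in CC to 11361991 in H. They had a median of 5 macrophage gate markers, and at least 1 progenitor gate marker was seen in 77.6% of them. CC thus carries the widest intervals of the macrophage values. Of the barcodes, 1052 sequences occurred in 2 or more libraries, with at most 55 in any pair.

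The promoter matches are shown first because the ISRE is the element that the interferon-activated STAT complex is known to bind. In windows of 300 bases (250 before to 50 after the RefSeq start of each transcript, GRCm38.p6), the ISRE core GAAANNGAAA was searched on both strands (TTTCNNTTTC on the other). It was found in 18 of the 29 member genes with a window (62.1%), against 3.99% of 27025 genes. The interferon-gamma-activated site core TTCNNNGAA was found in 4 of the 29 (13.8%), against 9.55% of all genes. No entry matched Ifi204, Mx1, Mx2, Oas2, Parp14, Parp9, Usp18 or Zbp1. A match is a run of letters and was not tested as a binding site. Below is 1 match, or 2 for Ddx60, in some of the genes that the results turn on and in the classical members Ifit1 and Isg15, with 8 flanking bases on each side, 5′ to 3′ along the gene, and capitals marking the core of that match alone.
Ddx60, chr8:61928026-61928051, + strand: gatgaatgGAAACCGAAActtaaagc
Ddx60, chr8:61928060-61928085, + strand: gcagaagaGAAACCGAAActatcctt
Gbp7, chr3:142530275-142530300, + strand: gtgtgcagTTTCAGTTTCagttctcc
Gbp3, chr3:142559991-142560016, + strand: ggacacagTTTCAGTTTCtatttccc
Stat2, chr10:128270268-128270293, + strand: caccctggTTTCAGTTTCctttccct
Trim30a, chr7:104465212-104465237, - strand: ttctttagTTTCTTTTTCtcagttcc
Trim30d, chr7:104507873-104507898, - strand: ttctttagTTTCTTTTTCtcagttcc
Ifit1, chr19:34640796-34640821, + strand: agtctcagTTTCAGTTTCtcactgct
Isg15, chr4:156200873-156200898, - strand: aggaaaagGAAACCGAAAcagaaaat

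Ddx60 held 2 copies of the same core, 53 and 19 bases before its start. Further matches, not in capitals, overlap the one shown in Gbp3 (2 in all) and Isg15 (3 in all), 1 more lies upstream in Ifit1, and Trim30a has 1 more in the window of another transcript start. The Trim30a and Trim30d sites were identical over all 26 bases. These are neighbouring paralogs. Reads from related genes of one family (also Ifi204 and Ifi207, the guanylate-binding proteins, and the Schlafens) may not all be assigned with certainty. How alike their transcripts are was not tested. The whole stretch of 250 bases before the start is shown for Ddx60, the member with the widest gap between macrophage kinds, for Gbp7, the member with the deepest fall in obesity over all macrophage-gated nuclei, and for Samd9l, the one member that rose in them. The windows are set by RefSeq starts, which for some genes, Gbp7 among them, differ from the GENCODE starts in the gene coordinates given further on. Capitals again mark the ISRE core, and the 300-base window of Samd9l holds no match to these letters.
Ddx60, chr8:61927837-61928086, + strand: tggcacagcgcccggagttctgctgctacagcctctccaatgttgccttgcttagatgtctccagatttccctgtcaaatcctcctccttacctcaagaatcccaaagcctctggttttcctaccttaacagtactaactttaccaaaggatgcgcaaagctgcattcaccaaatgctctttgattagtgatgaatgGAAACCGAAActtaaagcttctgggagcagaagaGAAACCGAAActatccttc
Gbp7, chr3:142530086-142530335, + strand: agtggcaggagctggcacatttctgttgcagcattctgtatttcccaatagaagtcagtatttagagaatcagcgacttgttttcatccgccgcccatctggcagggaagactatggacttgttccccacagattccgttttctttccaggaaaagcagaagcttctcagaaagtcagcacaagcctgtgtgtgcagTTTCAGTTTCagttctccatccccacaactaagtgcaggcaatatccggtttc
Samd9l, chr6:3399572-3399821, - strand: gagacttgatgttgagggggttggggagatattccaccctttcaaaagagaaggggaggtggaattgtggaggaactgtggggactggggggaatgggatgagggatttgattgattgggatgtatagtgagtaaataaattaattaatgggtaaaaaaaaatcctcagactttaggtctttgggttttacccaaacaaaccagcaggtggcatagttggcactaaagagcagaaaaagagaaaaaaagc

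The summed level of these transcripts was higher in macrophages of each chow library than in macrophages of the obese and WL libraries. Levels are counts per 1000000 UMIs (CPM) of a class in a library, with Malat1 and mitochondrial genes taken out first. Brackets give exact Poisson 95% intervals that cover counting error only. Summed over the 35 genes, macrophage-gated nuclei of C held 3163 (3105 to 3222) CPM. CC stood at 3364 (3092 to 3654) on 49 nuclei, but at 2728 on 227 nuclei when those with a second class's markers were kept. CCC stood at 2453 (2346 to 2564). Of the obese libraries, H held 2190.0 (2163 to 2217) CPM. HH held 2349 (2318 to 2380.1). After WL, HC held 2015 (1962 to 2069) and HHC 2179 (2148 to 2210.1). CCH stood at 2671 (2626 to 2716) and HCH at 2533 (2493 to 2573). All 4 obese and WL libraries were thus below all 3 chow libraries, although the intervals of HH and CCC overlapped. The summed adipocyte gate markers in these nuclei moved with diet too, at 408, 1079.7 and 604 CPM in the chow libraries in that order, 95.8 and 167 in H and HH, and 363 and 346 in HC and HHC, and their part in the difference was not tested.

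**Figure D1:**
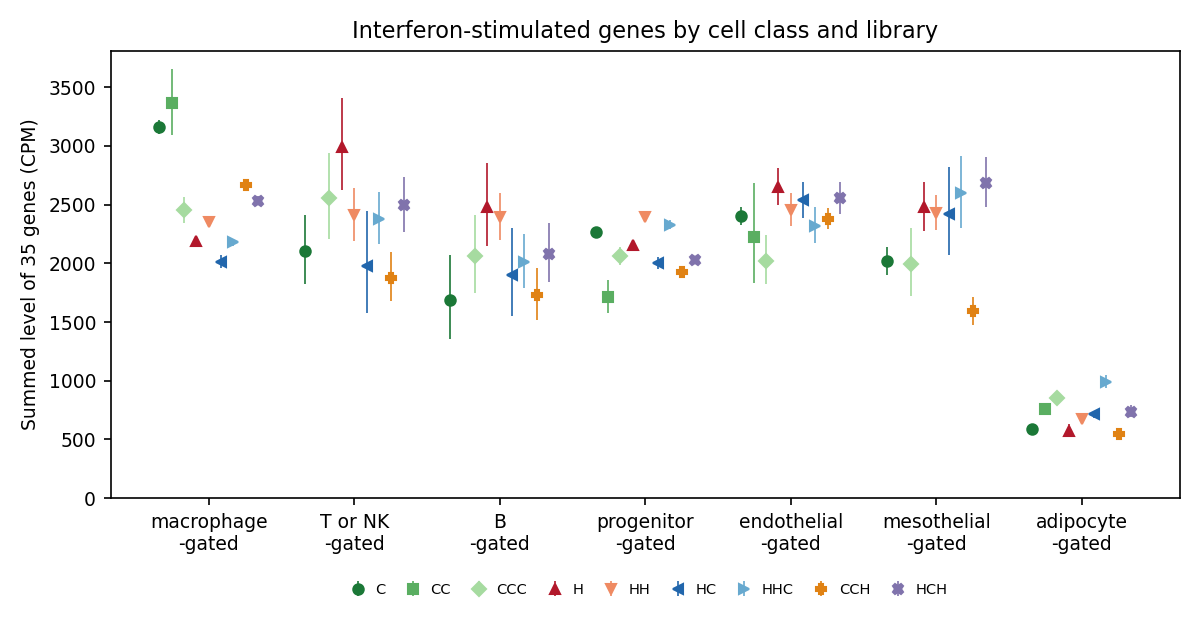
Summed level of the 35 genes (CPM, y axis) in 7 marker-gated cell classes (x axis), 1 point per library, bars showing exact Poisson 95% intervals, libraries with under 15 nuclei of a class not drawn. In macrophages the chow libraries C, CC and CCC sit at 3163, 3364 and 2453 CPM and the 4 obese and weight-loss libraries between 2015 and 2349 CPM. Adipocytes hold 546 to 991 CPM.

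The first question was how 12 weeks of HFD moved the genes, in H and C of the same age and sequencing set. The log2 ratio of the summed level, H over C, was -0.53 (-0.56 to -0.50), where brackets give exact conditional 95% intervals for counting error only. Among the 34 members with at least 20 UMIs over both libraries, 10 were at least 2-fold lower in H and 1 was at least 2-fold higher, that is 29.4% and 2.94% of them. Over all genes with as many UMIs, 13.8% were 2-fold lower and 26.5% 2-fold higher. The median log2 ratio was -0.67 over the members and 0.23 over all genes. The lowest ratios were those of Gbp7, -2.29 (-2.60 to -1.98), Zbp1, -2.13 (-2.80 to -1.47), and Gbp2, -1.90 (-2.48 to -1.32). The highest was that of Samd9l, 1.57 (1.37 to 1.77), followed by Irf9 at 0.30 (0.05 to 0.56) and Isg15 at 0.28 (-0.80 to 1.52), whose interval spans 0.

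After 25 weeks of HFD the summed level stood -0.52 (-0.64 to -0.40) from CC, and 9 members were 2-fold lower and 2 were 2-fold higher among 29 (31.0% and 6.90%), against 16.4% and 23.3% of all genes. HH and CC differ in age and in sequencing set, and with C of the same set as control the summed log2 ratio was -0.43. With nuclei that carry a second class's markers kept it was -0.25, with 5 members 2-fold lower and 2 higher, a setting where the share of all genes was not computed. Gbp7 (-2.47, -3.30 to -1.53), Ddx60 (-1.996, -2.30 to -1.68) and Gbp3 (-1.72, -3.14 to 0.20) had the lowest ratios. Samd9l (1.62, 0.78 to 2.63) and Bst2 (1.22, -0.34 to 3.50) had the highest, and Xaf1 had 220 UMIs in HH and 0 in CC.

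WL after the shorter HFD, in HC and CC of the same age and set, left the summed level at -0.74 (-0.86 to -0.61), and at -0.49 with nuclei of a second class kept, with 9 members 2-fold lower and 0 higher among 26 (34.6% lower), against 12.8% lower and 13.9% higher of all genes. Usp18 (-2.08, -3.55 to -0.30), Gbp7 (-1.87, -2.76 to -0.88) and Irf9 (-1.79, -2.92 to -0.48) were lowest. Gbp2 (0.52, -2.10 to 5.88), Ifih1 (0.33, -0.83 to 1.80) and Rsad2 (0.24, -1.71 to 3.34) were highest, all with intervals that span 0. WL after the longer HFD, in HHC and CCC, gave a summed difference of -0.17 (-0.24 to -0.10), or -0.26 with no upper limit on detected genes. There 3 members were 2-fold lower and 1 higher among 31 (9.68% and 3.23%), against 9.82% and 13.7% of all genes, so the share of members that was 2-fold lower was near that of all genes. The number 2-fold apart was 2 with at least 50 UMIs or with nuclei of a second class kept, and 7 with at least 1 UMI. The share of all genes was not computed at those settings, so these numbers show only that the count depends on them. Oas2 (-1.87, -2.27 to -1.46), Ifit2 (-1.20, -2.33 to 0.11) and Gbp3 (-1.03, -1.81 to -0.16) were lowest. Ifit3 (1.13, -1.48 to 6.49), Gbp2 (0.93, -0.15 to 2.27) and Zbp1 (0.87, -0.75 to 3.19) were highest, with intervals that span 0.

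Renewed HFD was compared with a first HFD of the same 4 weeks in HCH and CCH of the same age and set. The summed ratio was -0.08 (-0.11 to -0.04), and -0.12 to -0.24 under 4 of 5 alternatives, with 0 members 2-fold lower and 4 higher among 33 (12.1% higher), against 3.28% and 15.8% of all genes. With at least 50 UMIs over both libraries 1 was higher, since Ifit1 had 18 and 4 UMIs, Isg15 21 and 6, and Ifit3 22 and 8. For that minimum the share of all genes was not computed. Ifit1 (1.88, 0.28 to 3.90), Isg15 (1.52, 0.16 to 3.12) and Bst2 (1.26, 0.88 to 1.65) were highest, and Oas2 (-0.85, -1.07 to -0.64), Gbp3 (-0.82, -1.40 to -0.25) and Gbp7 (-0.67, -0.93 to -0.41) lowest. A first HFD against chow, in CCH and CC of different sets, gave -0.33 (-0.45 to -0.21), but -0.06 with nuclei of a second class kept and -0.13 with TMM scaling. There were 3 members 2-fold lower and 0 higher among 27 (11.1% lower) in the main setting, against 15.3% and 11.2% of all genes. Rsad2 (-1.37, -3.39 to 1.76), Eif2ak2 (-1.24, -1.82 to -0.61) and Usp18 (-1.03, -2.31 to 0.64) were lowest. The 3 highest were Ifih1 (0.47, -0.67 to 1.93), Parp14 (0.33, -0.26 to 0.998) and Samd9l (0.30, -0.55 to 1.32), with intervals that span 0. The comparisons that use CC share that library and its 564 member UMIs.

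To set the differences against the spread between libraries, the summed macrophage counts of all 9 libraries were fitted in edgeR (quasi-likelihood test) with 5 diet states: chow (C, CC, CCC), obese (H, HH), WL (HC, HHC), first HFD (CCH) and renewed HFD (HCH). Libraries of one state differ in age, duration of diet and, for chow, sequencing set, and the fit takes that spread as replicate error. Adjusted p-values (Benjamini-Hochberg) are over all 16279 genes tested. In obese against chow, 11 of 35 members fell and 1 rose (31.4% and 2.86%), against 13.3% of all genes that fell and 15.8% that rose. In WL against chow, 3 fell and 0 rose (8.57% lower), against 3.05% and 4.45% of all genes. At an unadjusted p under 0.05 stood 16 members in the first comparison and 9 in the second (45.7% and 25.7%), near the 40.9% and 22.1% of all genes. DESeq2 called 10 members lower and 1 higher in obese, and 4 lower and 0 higher in WL, in either direction 31.4% and 11.4% of members against 24.0% and 7.62% of all genes. With the sequencing set as a covariate edgeR called 13 lower and 1 higher in obese, where 20.5% of all genes were called. In WL it called 1 lower (2.86%), below the 3.50% of all genes. Of single libraries left out, C, H and HH moved the obese number of calls most, to 7, 5 and 6. Without H and without HH that is, in either direction, 14.3% and 17.1% of the members, near the 15.6% and 15.3% of all genes in those fits, and without C all genes were called at 16.6%. In WL 1 was called without C (against 3.51% of all genes), 1 without CC (4.98%) and 6 without CCC (6.58%). The median log2 change of the 35 members was -0.65 in obese and -0.44 in WL, and that of all genes 0.05 and 0.03. The obese calls of Gbp3, Stat2, Rnf213, Sp100, Herc6, Trim30d and Parp9 were lost under at least 1 of the 13 alternatives. Where the text below says that a gene fell or rose, it passed this test at an adjusted p under 0.05, and changes are log2 values from the fit. That fit covers all macrophage-gated nuclei together, and fits within kinds of macrophage are given further on.

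Of the sensors and inhibitors of translation, Ddx60 is a helicase that aids RNA sensing by RIG-I-like receptors. Ddx60 (chr8:61928087-62038244, GRCm38, plus strand) stood at 349, 561 and 319.8 CPM in C, CC and CCC, 158 and 141 in H and HH, 187 and 205 in HC and HHC, and 363 and 368 in CCH and HCH. Both obese and both WL libraries lay below all 3 chow libraries, while CCH and HCH lay among the chow values. Over all macrophage-gated nuclei, Ddx60 fell in obese by 1.46 (SE 0.25, adjusted p = 0.0014) and in WL by 0.96 (SE 0.25, adjusted p = 0.034) on the log2 scale. Within PVM nuclei alone, taken up further on, its changes were 0.45 (adjusted p = 0.29) in obese and 0.73 (adjusted p = 0.36) in WL. In nuclei neither LAM nor PVM, Ddx60 rose in both, 2.05 (adjusted p = 0.010) and 2.46 (adjusted p = 0.0076). Eif2ak2, the kinase PKR that stops translation on double-stranded RNA, was measured at 72.3, 155 and 74.9 CPM in C, CC and CCC, 55.8 and 51.2 in H and HH, 87.7 and 75.3 in HC and HHC, and 65.5 and 53.8 in CCH and HCH. The CC value alone stood far above the rest, and the change of Eif2ak2 in obese was -0.80 (SE 0.30, adjusted p = 0.063). Ifih1, the RNA sensor MDA5, measured 77.4, 35.8 and 53.7 CPM in C, CC and CCC, 44.3 and 38.8 in H and HH, 44.97 and 60.4 in HC and HHC, and 49.7 and 54.9 in CCH and HCH. Its groups overlapped, at -0.65 (SE 0.30, adjusted p = 0.12) in obese. Zbp1, a sensor of Z-form nucleic acids, measured 13.5, 5.96 and 3.75 CPM in C, CC and CCC, 3.08 and 4.80 in H and HH, 2.23 and 6.85 in HC and HHC, and 5.41 and 4.59 in CCH and HCH. There was 1 UMI in CC and 3 in CCC, and its obese change was -1.39 (SE 0.59, adjusted p = 0.096).

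The interferon-inducible p200 proteins are DNA-binding relatives of a DNA sensor. Ifi207, the member with the most UMIs in these nuclei, was at 467, 447 and 327 CPM in C, CC and CCC, 521 and 611 in H and HH, 292 and 366 in HC and HHC, and 418 and 501 in CCH and HCH. H and HH lay above the chow libraries and HC below them, and neither change passed the test, 0.39 (SE 0.23, adjusted p = 0.23) in obese and -0.29 (SE 0.24, adjusted p = 0.54) in WL. Ifi204 was at 174, 155 and 98.7 CPM in C, CC and CCC, 117 and 135 in H and HH, 60.6 and 93.8 in HC and HHC, and 134 and 128 in CCH and HCH. It was lowest in HC, with changes of -0.26 (SE 0.28, adjusted p = 0.52) and -0.86 (SE 0.29, adjusted p = 0.095).

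Among the transcription factors, Stat2, part of the ISRE-binding complex, stood at 96.2, 107 and 97.4 CPM in C, CC and CCC, 60.9 and 55.5 in H and HH, 76.9 and 73.8 in HC and HHC, and 61.3 and 60.8 in CCH and HCH. All 6 other libraries, CCH and HCH among them, lay below the chow values, and Stat2 fell in obese, -0.83 (SE 0.23, adjusted p = 0.016), but not past the threshold in WL, -0.35 (SE 0.23, adjusted p = 0.42). Sp100, a scaffold of nuclear bodies, was at 239.5, 292 and 204 CPM in C, CC and CCC, 145 and 151 in H and HH, 209.6 and 174 in HC and HHC, and 244 and 186 in CCH and HCH. It fell in obese, -0.76 (SE 0.23, adjusted p = 0.029). Irf9, the DNA-binding partner of STAT2, was at 46.1, 47.7 and 39.97 CPM in C, CC and CCC, 56.9 and 55.97 in H and HH, 13.8 and 34.5 in HC and HHC, and 35.7 and 36.7 in CCH and HCH. Reads of Irf9 can come from Rnf31, which overlaps it on the same strand, and its changes were 0.27 (SE 0.33, adjusted p = 0.57) and -0.83 (SE 0.34, adjusted p = 0.17). Irf7, the factor that amplifies interferon production, had few UMIs (19, 2 and 2 in C, CC and CCC, 36 and 54 in H and HH, 3 and 23 in HC and HHC, and 7 and 16 in CCH and HCH), and its obese change was -0.29 (SE 0.62, adjusted p = 0.77).

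The 2′-5′ oligoadenylate synthetases activate RNase L. Oas2 (chr5:120730333-120749853, minus strand) stood at 124, 101 and 87.4 CPM in C, CC and CCC, 44.97 and 37.6 in H and HH, 33.8 and 23.9 in HC and HHC, and 91.6 and 50.6 in CCH and HCH. All obese and WL libraries, and HCH, lay below every chow library, and Oas2 fell in both, -1.44 (SE 0.29, adjusted p = 0.0035) in obese and -1.86 (SE 0.31, adjusted p = 0.0027) in WL. In PVM nuclei alone its changes were 0.20 (adjusted p = 0.71) in obese and -0.77 (adjusted p = 0.51) in WL. In nuclei neither LAM nor PVM, Oas2 rose in obese, 2.18 (adjusted p = 0.022), and its WL change was 1.83 (adjusted p = 0.096). Oasl2 was at 56.0, 41.8 and 16.2 CPM in C, CC and CCC, 26.6 and 32.3 in H and HH, 25.6 and 26.9 in HC and HHC, and 31.1 and 35.1 in CCH and HCH. Its CCC value, the lowest, sat below both obese libraries, and the change was -0.53 (SE 0.41, adjusted p = 0.35). Oas3 had few UMIs (14, 0 and 1 in C, CC and CCC, 28 and 14 in H and HH, 8 and 14 in HC and HHC, and 9 and 10 in CCH and HCH) and a change of -0.65 (SE 0.73, adjusted p = 0.54).

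Of the guanylate-binding proteins, GTPases that act on vacuoles holding pathogens, Gbp7 had the deepest fall of all members. Gbp7 (chr3:142530342-142550149, plus strand) stood at 62.8, 77.5 and 46.2 CPM in C, CC and CCC, 12.8 and 13.96 in H and HH, 21.2 and 29.4 in HC and HHC, and 55.7 and 35.1 in CCH and HCH. H and HH were lowest, HC and HHC next, and all 4 below the chow libraries, with changes of -2.22 (SE 0.30, adjusted p = 3.3e-04) in obese and -1.19 (SE 0.30, adjusted p = 0.028) in WL. Gbp3 was at 14.3, 23.9 and 19.99 CPM in C, CC and CCC, 4.58 and 7.25 in H and HH, 8.18 and 9.81 in HC and HHC, and 13.03 and 7.38 in CCH and HCH, and fell in obese, -1.64 (SE 0.39, adjusted p = 0.0084). Gbp2 was at 16.04, 5.96 and 8.74 CPM in C, CC and CCC, 4.31 and 8.85 in H and HH, 8.55 and 16.7 in HC and HHC, and 6.41 and 9.18 in CCH and HCH, with overlap between groups and a change of -1.04 (SE 0.48, adjusted p = 0.12).

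The ubiquitin ligases and PARPs moved the same way where they passed. Trim30a (chr7:104409025-104465193, minus strand), a RING-finger ligase of a mouse gene cluster, stood at 309.5, 310.2 and 206 CPM in C, CC and CCC, 131 and 126 in H and HH, 155 and 129.5 in HC and HHC, and 242 and 167 in CCH and HCH. Every other library than CCH lay below the chow range, and Trim30a fell in obese, -1.16 (SE 0.26, adjusted p = 0.0059), while its WL change missed the threshold, -0.89 (SE 0.26, adjusted p = 0.054). Its paralog Trim30d was at 106, 101 and 53.7 CPM in C, CC and CCC, 41.5 and 52.9 in H and HH, 36.8 and 46.1 in HC and HHC, and 90.8 and 64.4 in CCH and HCH, and fell in obese, -0.96 (SE 0.31, adjusted p = 0.037). Rnf213, a giant ligase that coats lipid droplets and bacteria, was at 179.8, 161 and 136 CPM in C, CC and CCC, 96.6 and 96.9 in H and HH, 168 and 134 in HC and HHC, and 127 and 99.8 in CCH and HCH. It fell in obese, -0.80 (SE 0.25, adjusted p = 0.028), with HC within the chow range.

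Parp9, which with its partner Dtx3l modifies histones, was at 114, 167 and 94.9 CPM in C, CC and CCC, 73.2 and 77.6 in H and HH, 84.0 and 79.6 in HC and HHC, and 88.8 and 84.1 in CCH and HCH. It fell in obese with an adjusted p at the edge of the threshold, -0.72 (SE 0.25, adjusted p = 0.0495). Dtx3l was at 28.7, 35.8 and 34.97 CPM in C, CC and CCC, 29.3 and 27.8 in H and HH, 28.99 and 33.5 in HC and HHC, and 30.7 and 32.1 in CCH and HCH, with a change of -0.23 (SE 0.27, adjusted p = 0.54). Parp14, an ADP-ribosyltransferase, was at 194, 137 and 129.9 CPM in C, CC and CCC, 122 and 143 in H and HH, 134 and 151 in HC and HHC, and 173 and 136 in CCH and HCH. Its groups overlapped, at -0.33 (SE 0.25, adjusted p = 0.34) in obese. In the ISG15 system, in which a ubiquitin-like tag is attached and removed, Herc6, the mouse ISG15 ligase, was at 139, 101 and 94.9 CPM in C, CC and CCC, 72.5 and 72.6 in H and HH, 80.3 and 91.8 in HC and HHC, and 107 and 86.7 in CCH and HCH. Herc6 fell in obese, -0.75 (SE 0.25, adjusted p = 0.04). Usp18, the protease that removes the tag, was at 17.2, 29.8 and 3.75 CPM in C, CC and CCC, 7.75 and 9.59 in H and HH, 7.06 and 5.93 in HC and HHC, and 14.6 and 12.9 in CCH and HCH. It had every other library inside the range of the chow libraries and a change of -0.81 (SE 0.51, adjusted p = 0.26).

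The classical antiviral effectors were sparse in these nuclei. Isg15 itself was at 2.53, 0 and 1.25 CPM in C, CC and CCC, 3.08 and 3.09 in H and HH, 0.743 and 0.114 in HC and HHC, and 1.20 and 3.44 in CCH and HCH, on 0 to 35 UMIs a library. Ifit1, which binds uncapped viral RNA, was at 5.91, 0 and 3.75 CPM in C, CC and CCC, 2.99 and 3.94 in H and HH, 2.97 and 1.83 in HC and HHC, and 0.802 and 2.95 in CCH and HCH. Ifit2 and Ifit3 are its relatives. Ifit2 was at 5.35, 0 and 9.99 CPM in C, CC and CCC, 5.90 and 4.05 in H and HH, 7.43 and 4.34 in HC and HHC, and 4.01 and 4.43 in CCH and HCH. Ifit3 was at 5.35, 0 and 1.25 CPM in C, CC and CCC, 3.96 and 3.31 in H and HH, 0.743 and 2.74 in HC and HHC, and 1.60 and 3.61 in CCH and HCH. The value of 0 in CC allows a level of up to 17.9 CPM (3 counts of its 167643 UMIs), so these genes could not be placed in that library. Their obese changes of 0.48 for Isg15, -0.56 for Ifit1, -0.42 for Ifit2 and -0.16 for Ifit3 had adjusted p-values of 0.52 to 0.89 and standard errors of 0.57 to 0.75. Rsad2, the antiviral enzyme viperin, was at 20.3, 11.9 and 7.49 CPM in C, CC and CCC, 14.3 and 13.3 in H and HH, 14.1 and 12.7 in HC and HHC, and 4.61 and 7.05 in CCH and HCH, with a change of -0.23 (SE 0.41, adjusted p = 0.71). Ifi44 had few UMIs (5, 0 and 3 in C, CC and CCC, 8 and 7 in H and HH, 2 and 7 in HC and HHC, and 3 and 8 in CCH and HCH) and a change of -1.48 (SE 0.88, adjusted p = 0.23).

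Xaf1, a pro-apoptotic protein, was at 18.9, 0 and 16.2 CPM in C, CC and CCC, 21.2 and 23.4 in H and HH, 14.5 and 16.2 in HC and HHC, and 15.4 and 19.5 in CCH and HCH, with a change of 0.38 (SE 0.40, adjusted p = 0.5). Bst2, tetherin, which holds budding virus at the cell surface, was at 25.6, 17.9 and 21.2 CPM in C, CC and CCC, 30.6 and 41.7 in H and HH, 11.5 and 23.3 in HC and HHC, and 15.6 and 37.4 in CCH and HCH. HH and HCH were highest, and the changes of 0.55 (SE 0.34, adjusted p = 0.24) in obese and -0.37 (SE 0.35, adjusted p = 0.6) in WL did not pass. The Schlafens, regulators of translation and the cell cycle, did not pass either. Slfn5 was at 60.2, 89.5 and 81.2 CPM in C, CC and CCC, 45.9 and 52.3 in H and HH, 73.6 and 75.2 in HC and HHC, and 47.5 and 61.96 in CCH and HCH. Its obese change was -0.64 (SE 0.24, adjusted p = 0.065). Slfn8 was at 48.7, 65.6 and 57.5 CPM in C, CC and CCC, 39.4 and 43.2 in H and HH, 46.8 and 61.7 in HC and HHC, and 47.1 and 50.0 in CCH and HCH. Its obese change was -0.47 (SE 0.25, adjusted p = 0.17), and both obese libraries lay below chow for both genes.

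Samd9l, a restriction factor of poxviruses and a suppressor of growth in blood cells (chr6:3372257-3399572, minus strand), was the 1 member that rose in obese over all macrophage-gated nuclei. It stood at 62.5, 65.6 and 93.7 CPM in C, CC and CCC, 185 and 202 in H and HH, 71.7 and 107 in HC and HHC, and 80.98 and 123 in CCH and HCH. H and HH were highest, HCH and HHC next, and HC lay within the chow range. Samd9l rose in obese by 1.32 (SE 0.24, adjusted p = 0.0018), and its WL change was 0.31 (SE 0.24, adjusted p = 0.51).

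**Figure D2:**
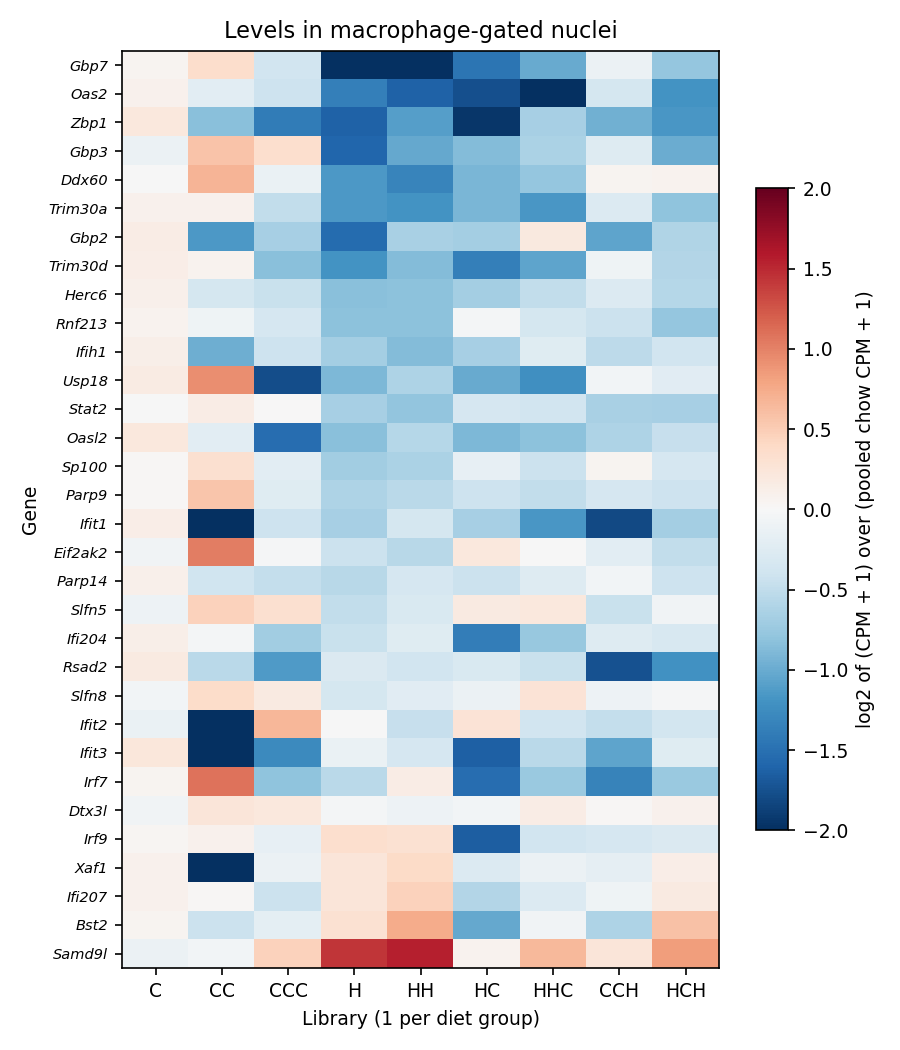
Level of each gene in macrophage-gated nuclei (rows, the 32 genes with at least 20 UMIs over the chow libraries) in each library (columns), as log2 of CPM plus 1 over the pooled chow CPM plus 1, with colour limited at 2 either way. Gbp7, Oas2, Ddx60 and Trim30a are blue in H, HH, HC and HHC, and Samd9l is red in H and HH.

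The next question was whether these levels differed between kinds of macrophage, since the mix of kinds differed between libraries. Nuclei with at least 2 of 6 markers of 1 kind, and no more than 1 of the other for every 2 of these, were called LAM (Gpnmb, Atp6v0d2, Mmp12, Trem2, Spp1, Itgax) or PVM (Lyve1, Cd163, F13a1, Mrc1, Folr2, Cbr2), which gave 8175 LAM and 4527 PVM nuclei and left 4312 as neither. LAM nuclei made up 1.06% and 2.94% of macrophage-gated nuclei in C and CCC, and 0 of 49 nuclei in CC, where the exact binomial 95% interval reaches 7.25%. They made up 69.4% and 59.2% in H and HH, 52.7% and 69.8% in HC and HHC, and 1.30% and 27.96% in CCH and HCH. PVM nuclei made up 90.2% in C, 95.9% in CC and 81.8% in CCC, but 6.31% and 9.26% in H and HH, and 15.4% and 1.39% in HC and HHC, the last on 36 nuclei. CCH had 91.5% PVM nuclei and HCH 35.5%. None of the 35 genes was a marker of either kind.

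LAM nuclei held less of the interferon-stimulated transcripts than PVM nuclei in each of the 8 libraries that had both. The summed level in LAM nuclei was 2031 and 1648 CPM in C and CCC, 1768 and 1979 in H and HH, 1631 and 1839 in HC and HHC, and 1073 and 1738 in CCH and HCH. In PVM nuclei it was 3285, 3425 and 2684 CPM in C, CC and CCC, 4276 and 3638 in H and HH, 2954 and 4236 in HC and HHC, and 2789 and 3336 in CCH and HCH. The ranges of the kinds did not overlap, 1073 to 2031 CPM in LAM and 2684 to 4276 CPM in PVM, though C, CCC and CCH had only 16, 11 and 19 LAM nuclei. The mean log2 difference was -0.99 ± 0.26 (SD, n = 8 libraries), lower in LAM in 8 of 8, with a two-sided exact sign-flip permutation p of 0.00781, the smallest that 8 libraries can give. Nuclei of neither kind held 1796, 1399 and 1427 CPM in C, CCC and CCH. They held more in the others, 3045 and 2715 in H and HH, 2322 and 2875 in HC and HHC, and 2427 in HCH. Their median depth was also lower in C and CCC (1330.5 and 1308 UMIs per nucleus) than in H, HH, HC, HHC and HCH (2047 to 3388), though in CCH it was 3047, and the part of depth in that difference was not tested.

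**Figure D3:**
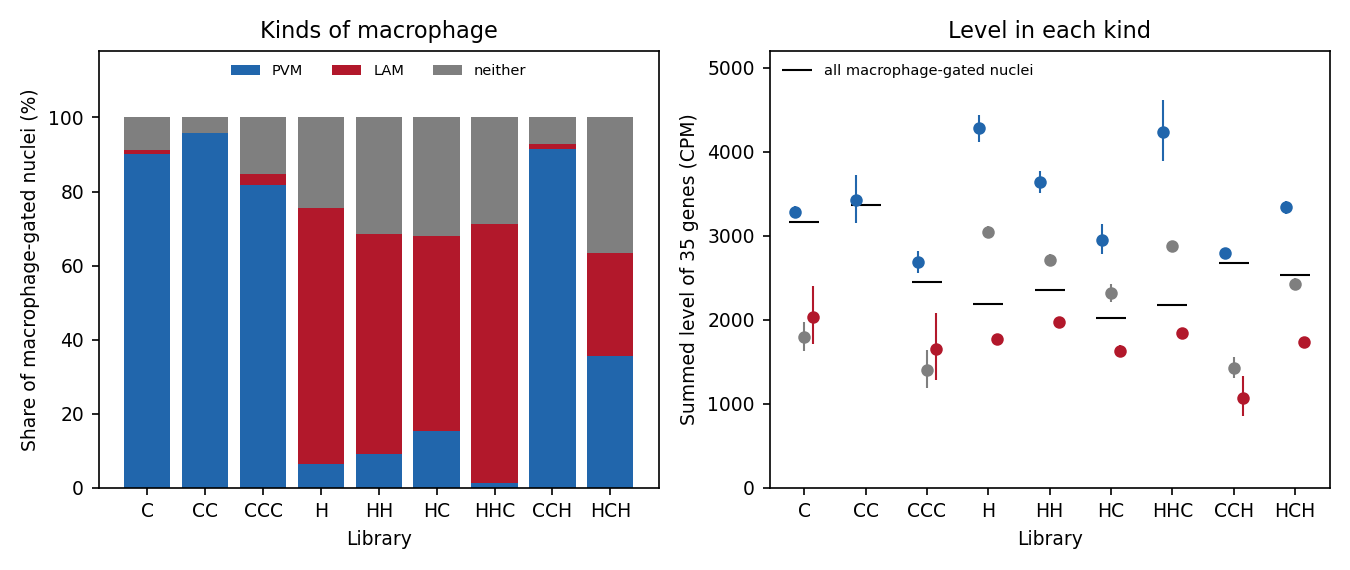
Left, share of macrophage-gated nuclei of each kind (%) by library. Right, summed level of the 35 genes (CPM) in PVM nuclei (blue), LAM nuclei (red) and nuclei of neither kind (grey), bars showing exact Poisson 95% intervals and black dashes the level over all macrophage-gated nuclei; kinds with under 11 nuclei are not drawn. Red points lie below blue points in each of the 8 libraries with both, and the dash moves from the blue point in C to nearer the red point in H and HHC.

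Gene by gene, LAM and PVM nuclei were compared in edgeR over the obese and WL libraries and HCH, with the library as a block, a fit chosen after the data were seen. Of 32 members tested, 26 were lower in LAM nuclei and 0 higher (81.3% lower), against 12.6% lower and 15.6% higher of 12655 genes. The median over members was -0.89 and over all genes 0.07. With each library left out in turn, 22 to 27 members were called lower and 0 higher, against 11.2% to 13.4% lower and 11.6% to 14.6% higher of all genes.

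Ddx60 had the widest gap. Its level in LAM nuclei was 50.3 and 60.7 CPM in H and HH, 84.2 and 81.8 in HC and HHC, and 58.6 in HCH. In PVM nuclei of the same libraries, in that order, it was 764, 488, 521, 1002 and 684 CPM. The lowest PVM value was several times the highest LAM value, and the log2 difference was -3.37 (SE 0.12, adjusted p = 7.0e-22). Oas2 was at 21.2, 18.8, 12.4, 12.7 and 16.98 CPM in LAM nuclei, libraries in the order just used, and at 174, 114, 75.96, 55.2 and 81.8 in PVM nuclei. That gap was -2.65 (SE 0.15, adjusted p = 2.0e-16). Gbp7 was at 5.11, 7.55, 7.18, 21.5 and 13.2 CPM in LAM and 48.5, 36.4, 51.5, 78.9 and 57.4 in PVM nuclei, a gap of -2.46 (SE 0.22, adjusted p = 1.1e-11).

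Trim30a and Parp14 showed narrower gaps of -1.28 (SE 0.11, adjusted p = 2.0e-12) and -1.12 (SE 0.10, adjusted p = 1.3e-11). Trim30a was at 97.03, 96.5, 110.3, 108 and 107 CPM in LAM and 288, 240.5, 204, 331 and 216 in PVM nuclei. Usp18 (-2.12, SE 0.32, adjusted p = 1.3e-06) and Ifit1 (-2.13, SE 0.50, adjusted p = 9.6e-04), called in neither diet comparison, were lower in LAM nuclei as well. Ifit1 had only 22, 28, 6 and 12 UMIs over both kinds in H, HH, HC and HCH. At the other end, Ifi207 differed by -0.22 (SE 0.08, adjusted p = 0.046). Of the 6 members not called, those with narrow gaps were Samd9l (-0.25, SE 0.11, adjusted p = 0.079), Irf9 (-0.21, SE 0.18, adjusted p = 0.45) and Gbp2 (-0.10, SE 0.38, adjusted p = 0.9). The others were Rsad2 (-0.55, SE 0.33, adjusted p = 0.24), Ifit3 (-1.03, SE 0.56, adjusted p = 0.19) and Irf7 (-0.71, SE 0.53, adjusted p = 0.38). The log2 ratio of Rsad2, LAM over PVM, went both ways, -0.43 in H and -1.90 in HH, but 0.94 in HC and 0.98 in HCH.

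**Figure D4:**
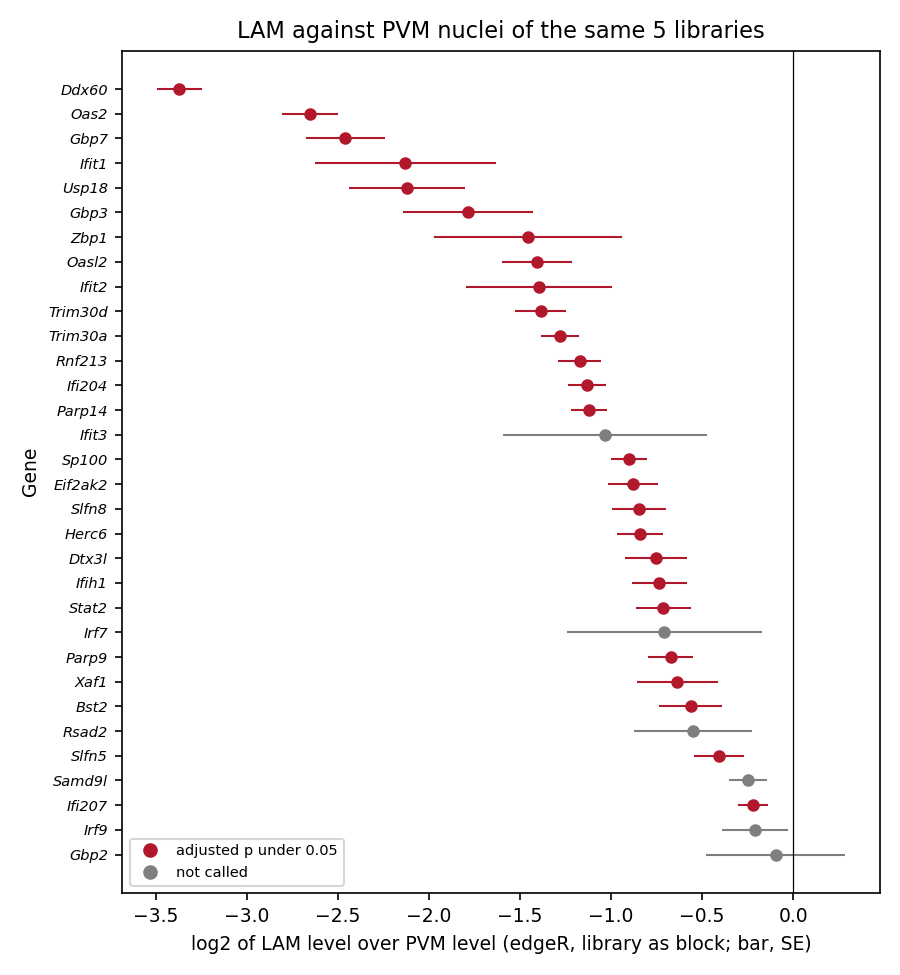
Log2 of the LAM level over the PVM level (x axis) for the 32 members tested (y axis), from edgeR with the library as block over H, HH, HC, HHC and HCH, bars showing the standard error and red points an adjusted p under 0.05. All 32 points lie below 0, from -3.37 for Ddx60 to -0.10 for Gbp2, and Samd9l is at -0.25.

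The diet comparisons were also made within PVM nuclei alone, and whether they differ from those over all macrophages was not tested. The summed level in PVM nuclei was higher in H than in C, 0.38 (0.32 to 0.44). There 5 of 31 members were 2-fold higher and 2 lower (16.1% and 6.45%), against 15.6% higher and 11.5% lower of all genes. The share of members that was 2-fold higher was thus near that of all genes. The members higher were Samd9l (1.80, 1.48 to 2.12), Ddx60 (1.03, 0.88 to 1.19), Irf9 (1.08, 0.64 to 1.51), Ifit2 (1.43, 0.08 to 2.68) and Ifit3 (1.35, 0.01 to 2.58). Zbp1 (-1.53, -3.86 to 0.11) and Gbp2 (-1.01, -2.95 to 0.45) were lower, with intervals that span 0. HHC PVM nuclei stood 0.66 (0.52 to 0.80) from CCC, with Ddx60, Oasl2, Rnf213 and Slfn8 2-fold higher and 0 lower of 21 members (19.05% higher), against 5.46% and 11.0% of all genes. HCH PVM nuclei stood 0.26 (0.22 to 0.30) from CCH, with Ifit3 and Bst2 2-fold higher and 0 lower of 30 (6.67% higher), against 11.3% and 3.28%. The remaining summed ratios were 0.09 (-0.04 to 0.22) for HH against CC, -0.21 (-0.36 to -0.06) for HC against CC and -0.30 (-0.42 to -0.17) for CCH against CC, all with the 47 PVM nuclei of CC as control. Of the members with enough UMIs, 3 were 2-fold higher and 2 lower of 26 in the first (11.5% and 7.69%), against 23.8% and 8.20% of all genes. In the second 0 of 19 were 2-fold apart, against 8.74% higher and 5.79% lower. In the third 0 were higher and 4 lower of 27, against 1100 higher and 1505 lower of 10009 genes.

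The edgeR fit of diet states repeated on PVM nuclei alone, chosen after the data were seen, called Samd9l higher in obese (1.54, SE 0.28, adjusted p = 8.3e-04) and 0 of 27 members lower, against 8.42% and 6.32% of all genes. In the same fit Ddx60 was at 0.45 (SE 0.26, adjusted p = 0.29), Oas2 at 0.20 (SE 0.27, adjusted p = 0.71), Gbp7 at -0.67 (SE 0.33, adjusted p = 0.19) and Trim30a at -0.21 (SE 0.24, adjusted p = 0.63). At an unadjusted p under 0.05, obese had 4 members (14.8%, against 27.5% of all genes) and WL had 4 (14.8%, against 9.05% of all genes). By edgeR 0 members were called either way in WL, against 0.349% higher and 0.156% lower of all genes. In nuclei of neither kind, fitted without CC, 6 of 31 members rose in obese (Ifi207, Samd9l, Ddx60, Oas2, Parp14, Ifi204) and 0 fell, against 6.67% and 7.96% of all genes. There 3 rose in WL (Ddx60, Ifi207, Parp14) and 0 fell, against 3.11% and 2.79%. As a further description, when the levels of the 3 kinds in each library were weighted by the shares of C, the summed level was 3163 and 2579 CPM in C and CCC, 4147 and 3546 in H and HH, 2887 and 4101 in HC and HHC, and 2666 and 3246 in CCH and HCH. At that fixed mix H, HH, HHC and HCH were above C, and HC, CCC and CCH below it. HHC had 36 PVM nuclei, and the PVM intervals of HCH (3258.5 to 3415.5) and C (3223 to 3348) overlapped. Weighted by the shares of H instead, the summed level was 2050.0 and 1652 CPM in C and CCC, 2190.0 and 2234 in H and HH, 1857 and 2201 in HC and HHC, and 1248 and 1979.8 in CCH and HCH. At that mix LAM nuclei weigh most, and the LAM level of C, 2031 (1708 to 2398) CPM, rests on 16 nuclei. C then stood above HCH and below H, HH and HHC, by gaps within that counting error.

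In none of 4 other classes did both obese libraries lie below all 3 chow libraries in summed level, and Samd9l rose in each of the 5 classes fitted. In progenitors (adipocyte progenitor cells, APCs), the summed level was 2265, 1713 and 2062 CPM in C, CC and CCC, 2158 and 2392 in H and HH, 2001 and 2328 in HC and HHC, and 1929 and 2028 in CCH and HCH, and the groups overlapped. In endothelial nuclei it was 2400.2, 2228 and 2022 CPM in C, CC and CCC, 2652 and 2453 in H and HH, 2536 and 2320.4 in HC and HHC, and 2379.9 and 2556 in CCH and HCH. There H and HH lay above all 3 chow libraries, but the intervals of HH (2316 to 2595) and C (2327 to 2476) overlapped. CC had 18 endothelial nuclei and an interval of 1831.5 to 2686 CPM. Mesothelial nuclei held 2020.3, 2252 and 1995 CPM in C, CC and CCC, 2479 and 2429.6 in H and HH, 2423 and 2596 in HC and HHC, and 1591 and 2686 in CCH and HCH, with 8 nuclei in CC. There the obese and WL libraries and HCH all lay above the chow values. In adipocytes it was 592, 759.6 and 857 CPM in C, CC and CCC, 574 and 671 in H and HH, 716 and 991 in HC and HHC, and 546 and 738 in CCH and HCH, the lowest of these classes in every library. In the edgeR fit of diet states, the median obese log2 change of the members was -0.53 in adipocytes, against -0.10 over all genes. It was -0.20 against 0.03 in progenitors, 0.16 against -0.02 in endothelial nuclei and 0.22 against 0.01 in mesothelial nuclei.

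Macrophage RNA free in the droplets can reach nuclei of other classes. The study's methods report that ambient RNA was estimated with SoupX and that none of the mouse libraries needed correcting. A rough scale was made from 7 macrophage markers outside the gate (Trem2, Cd68, C1qa, C1qb, Ctss, Lyz2, Atp6v0d2), as their level in a class over that in macrophages of the same library. The scale takes free RNA to hold markers and members in the proportion of macrophage nuclei, which was not tested. In T or NK nuclei of H these markers held 3354 CPM, against 4224 in macrophages, so the ratio cannot be read as a share of RNA. On that scale macrophage RNA would give 749 CPM of the members in adipocytes of CC, 548 in H and 727 in HCH, close to what was measured there. In C it would give 282, and in HC 220.1, below the measured 592 and 716. In progenitors it would give 426 CPM in C and 867 in H, against 2265 and 2158 measured. In endothelial nuclei the estimate was 527 CPM in C, 1227 in H and 1382 in HH, a wider difference than that between the measured levels. In mesothelial nuclei it was 586, 829.7 and 922. The part of free RNA in the higher levels of H and HH was not tested.

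Samd9l measured 39.4, 45.0 and 55.1 CPM in C, CC and CCC, 126 and 158 in H and HH, 53.9 and 85.9 in HC and HHC, and 49.8 and 81.7 in CCH and HCH in progenitors. H and HH lay above all other libraries, and the obese change was 1.46 (SE 0.25, adjusted p = 0.0033), with 2 of 34 members higher and 0 lower against 9.49% and 5.53% of all genes. The other was Bst2, at 1.41 (SE 0.43, adjusted p = 0.045). In endothelial nuclei Samd9l measured 69.3, 81.03 and 65.2 CPM in C, CC and CCC, 186 and 185 in H and HH, 64.1 and 100.1 in HC and HHC, and 90.4 and 144 in CCH and HCH, on 4 UMIs in CC. It rose in obese, 1.36 (SE 0.36, adjusted p = 0.025), the 1 member higher of 26, with 0 lower, against 3.45% and 1.65%. Mesothelial nuclei held 99.1, 123 and 147 CPM in C, CC and CCC, 334 and 252 in H and HH, 87.6 and 135 in HC and HHC, and 112 and 198 in CCH and HCH. The change was 1.40 (SE 0.36, adjusted p = 0.0041), the 1 member higher of 28, with 0 lower, against 4.91% and 1.66%. H and HH were again the 2 highest libraries.

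In adipocytes Samd9l measured 13.2, 30.1 and 34.2 CPM in C, CC and CCC, 59.9 and 94.8 in H and HH, 23.6 and 51.2 in HC and HHC, and 25.1 and 48.9 in CCH and HCH. It rose in obese, 1.48 (SE 0.40, adjusted p = 0.043), while Ifi204 (-1.80, SE 0.43, adjusted p = 0.031) and Trim30a (-1.34, SE 0.36, adjusted p = 0.041) fell. That made 1 higher and 2 lower of 33 members against 8.10% and 5.83% of all genes. On the scale above, macrophage RNA would give 46.4 CPM of Samd9l in H adipocytes and 50.5 in HH. It would give 73.4 and 101 in progenitors of H and HH, 104 and 119 in endothelial nuclei, and 70.2 and 79.4 in mesothelial nuclei. Mesothelial nuclei of H and HH thus held several times that estimate, also above the level in the macrophages themselves, whereas adipocytes of H were near it. In C the estimate was 8.40 CPM in progenitors, 10.4 in endothelial, 11.6 in mesothelial nuclei and 5.57 in adipocytes, and the part of free RNA in the change was not tested. In WL against chow 0 members were called in any of these 4 classes by edgeR, against 1.43% higher and 0.896% lower of all genes in progenitors, 0.664% and 0.156% in endothelial, 0.704% and 0.152% in mesothelial nuclei and 0% in adipocytes. At an unadjusted p under 0.05 there were 2 members in progenitors (5.88%, against 14.5% of all genes), 1 in endothelial nuclei (3.85% against 723 of 9641 genes), 1 in mesothelial nuclei (3.57% against 7.01%) and 2 in adipocytes (6.06% against 12.1%). The WL changes of Samd9l were 0.61 (adjusted p = 0.27) in progenitors, 0.23 (adjusted p = 0.98) in endothelial nuclei, 0.10 (adjusted p = 0.99) in mesothelial nuclei and 0.58 (adjusted p = 0.63) in adipocytes.

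**Figure D5:**
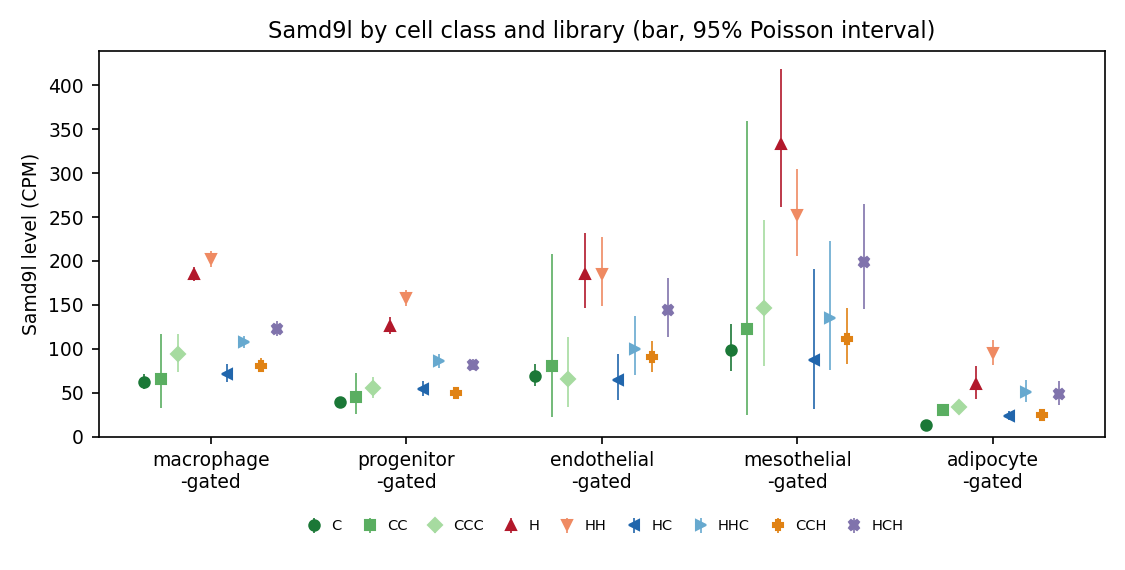
Samd9l level (CPM, y axis) in 5 marker-gated cell classes (x axis), 1 point per library, bars showing exact Poisson 95% intervals. H and HH are the 2 highest libraries in each of the 5 classes, reaching 334 CPM in mesothelial nuclei of H.

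Of the rest of the interferon pathway, 123 listed genes had a row and 99 were tested in macrophage-gated nuclei. In obese against chow, 14 rose and 17 fell (14.1% and 17.2%), near the 15.8% and 13.3% of all genes. In WL 2 rose and 5 fell (2.02% and 5.05%), against 4.45% and 3.05%. The genes named here are thus single calls, and the counts do not set the pathway apart from other genes. The ligands were at or near 0: of 21 interferon genes, 16 had 0 UMIs over all 76356 nuclei, among them the 13 listed Ifna genes and Ifnb1, and Ifng had 74. Ifnk had 198 UMIs, 88 of them in macrophage-gated nuclei, and its obese change was 2.51 (adjusted p = 0.063). Of the 6 receptor chains, Ifngr2, of the interferon-gamma receptor, rose (59.6 to 74.9 CPM in chow, 129 in H and 135 in HH, 0.88, adjusted p = 0.011). Ifnlr1, of the interferon-lambda receptor, had 26 UMIs in these nuclei and fell (-4.97, adjusted p = 0.015), a fitted size that depends on the prior count, since HH had 0 UMIs and H 0.088 CPM. Il10rb, the chain with the most UMIs, had 119 to 186 CPM in chow, 181 in H and 207 in HH, a change of 0.33 (adjusted p = 0.29).

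Of the 5 kinases and STATs, Jak1 (364 to 461 CPM in chow, 223 in H and 214 in HH, -0.94, adjusted p = 0.0098) and Stat3 (173 to 295 CPM in chow, 160.4 in H and 124 in HH, -0.83, adjusted p = 0.03) fell. Both signal for many cytokines besides interferons. Of the 6 other interferon regulatory factors, Irf8, a factor of the monocyte lineage, rose (41.8 to 89.9 CPM in chow, 112 in H and 135 in HH, 0.98, adjusted p = 0.025), and it rose in WL too, 1.30 (adjusted p = 0.017). Irf3 rose (1.18, adjusted p = 0.03) and Irf4, a factor of alternative activation, fell (5.96 to 57.5 CPM in chow, 11.6 in H and 18.4 in HH, -1.48, adjusted p = 0.022). Irf2, with the most UMIs of the list, was at 478 to 546 CPM in chow, 569 in H and 521 in HH, a change of 0.02 (adjusted p = 0.97). Of 14 sensors and adaptors, Tlr8, an endosomal RNA receptor (23.9 to 56.6 CPM in chow, 136 in H and 192 in HH, 1.69, adjusted p = 0.0024), and the kinase Ikbke (53.7 to 79.9 CPM in chow, 148 in H and 144 in HH, 0.88, adjusted p = 0.012) rose and 0 fell, Ikbke also in WL, 1.02 (adjusted p = 0.016). Tbk1, with the most UMIs there, had a change of 0.23 (adjusted p = 0.44). Of 5 feedback genes, Usp25 fell (209.6 to 250.5 CPM in chow, 142 in H and 132 in HH, -0.76, adjusted p = 0.015).

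Of 22 genes that lean towards interferon-gamma, the class II genes Cd74 (154 to 298 CPM in chow, 311 in H and 713 in HH, 1.26, adjusted p = 0.037) and H2-Ab1 (65.6 to 135 CPM in chow, 176 in H and 357 in HH, 1.30, adjusted p = 0.038) rose. The GTPases Gbp4 (-3.19), Gbp5 (-1.42), Gbp6 (-3.18), Gbp8 (-1.84) and Iigp1 (27.5 to 116 CPM in chow, 9.24 in H and 18.4 in HH, -2.43, adjusted p = 0.016) fell. Of 40 further interferon-stimulated genes, 7 rose and 7 fell in obese (17.5% each way, near the 15.8% and 13.3% of all genes). Those that rose were Slfn2 (29.8 to 39.7 CPM in chow, 119 in H and 128 in HH, 1.68, adjusted p = 7.4e-04), Ifitm2 (2.02), Ifitm3 (1.30), Ifi27l2a (1.72), Trim25 (1.22), Trafd1 (0.999) and Lgals3bp (1.51). Those that fell were Epsti1 (575 to 756 CPM in chow, 215 in H and 301 in HH, -1.42, adjusted p = 0.0016), Trim30b (-2.02), Trim30c (-1.37), Tdrd7 (-1.09), Ifi213 (-1.86), Ifi209 (-1.002) and Parp10 (-0.82). In WL the 5 that fell were Trim30c (-2.02), Trim30b (-2.29), Ifi213 (-2.16), Ifi209 (-1.44) and Ifi203 (-0.96).

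Finally, few nuclei carried the classical members together. Of 9 core genes (Ifit1, Ifit2, Ifit3, Isg15, Rsad2, Oas3, Usp18, Irf7, Ifi44), 2 or more were detected in 169 of 17014 macrophage-gated nuclei, and 4 or more in 31. By library the share with 2 or more was 1.53% and 0.267% in C and CCC, 0 of 49 in CC, 1.15% and 0.741% in H and HH, 1.16% and 0.658% in HC and HHC, and 1.16% and 1.17% in CCH and HCH. Nuclei with under 1000 UMIs were then left out (199 of 1503 in C, 58 of 374 in CCC and 172 of 4248 in H), and the others thinned to 1000 UMIs. Of these, 4 or more of the 35 members were detected in 24.9% of 1304 macrophage-gated nuclei in C (22.6 to 27.4, exact binomial 95% interval). In H it was 13.7% of 4076 (12.7 to 14.8). The thinned share was 16.3% and 19.6% in CC and CCC, 14.3% in HH, 12.1% and 13.7% in HC and HHC, and 19.8% and 16.4% in CCH and HCH. Without thinning, and over all macrophage-gated nuclei, it was 56.6, 79.6 and 43.3% in C, CC and CCC, 45.9 and 43.5 in H and HH, 52.9 and 63.8 in HC and HHC, and 67.99 and 64.2 in CCH and HCH. As a background class, thinned adipocytes gave 1.44% in C and 0.621% in H.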

How the data were processed

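Single-nucleus libraries (10x Genomics 3′ v3.1) of epiAT were analysed, 1 per diet group. The deposited values are raw UMI counts per gene and barcode, which the authors made with Cell Ranger 6.1.2 on mm10-2020A with intronic reads included. The authors then removed doublets and used Seurat 4.1.0, and the deposited matrices still hold nuclei above the authors' limit on detected genes. Here nuclei were filtered and gated by markers as described, no doublet caller was run, and totals exclude Malat1 and mitochondrial genes. Intronic priming and 3′ counting make levels of different genes incomparable, so only one gene, or one fixed sum, is compared between nuclei. CPM ratios of 2 libraries have no test. The fits used edgeR 4.0.16 (filterByExpr, TMM, quasi-likelihood) in R 4.3.3, with DESeq2 1.42.0 as an alternative, and the procedure was tested on simulated data. Gene coordinates are from GENCODE vM21. The members, marker lists and pathway lists were chosen with earlier results of these data known. Levels are given for the 2 members with the most UMIs per role, members called in the fit, and the 3 highest and lowest ratios per comparison, and Dtx3l was added after its values were seen. Genes with a bound that gave no direction were not counted in the 2-fold counts. Alternatives were other gates, scalings, filters and leaving out each chow, obese or WL library in turn.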

Additional observations from a re-analysis of the deposited data

How the results depend on the processing

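No paired analysis was possible because, between diet groups, the labels carry no replicate numbers and each group has 1 library. LAM and PVM nuclei alone were paired, by library. Of 102 alternative values of the summed ratios, 2-fold counts and numbers of called members, 71 stayed within the main interval or within 1.5 times the main count and 31 moved. No summed ratio over all macrophage-gated nuclei turned direction under these alternatives. The summed log2 ratio moved to -0.68 (TMM factors) and -0.69 (without Ifi207, the member with the most UMIs) for H against C, to -0.25 (nuclei with a second class kept) and -0.75 (without Ifi207) for HH against CC, and to -0.49 (second class kept), -0.87 (no upper limit on genes) and -0.55 (TMM) for HC against CC. It moved to -0.25 (at least 3 gate markers) and -0.26 (no upper limit) for HHC against CCC, to -0.12 (second class kept), -0.13 (no upper limit), -0.24 (TMM) and -0.15 (without Ifi207) for HCH against CCH, and to -0.06 (second class kept) and -0.13 (TMM) for CCH against CC. The number of members 2-fold apart moved to 7 with a second class kept in HH against CC, to 2 with a second class kept, 2 with at least 50 UMIs and 7 with at least 1 UMI in HHC against CCC, and to 1 with at least 50 UMIs in HCH against CCH. For these 2-fold counts the shares of all genes were computed in the main setting only. With each chow, obese or WL library left out in turn, the fit called 5 to 14 members in obese. That was 7 without C, 5 without H and 6 without HH (in the last pair, 14.3% and 17.1% of members, against 15.6% and 15.3% of all genes). In WL it called 1 to 6, with 1 without C, 1 without CC and 6 without CCC. The fit of LAM against PVM, with each of its own libraries left out, called 22 to 27 members lower in LAM. WL also gave 6 without the filter on low counts (17.1% of members against 9.22% of all genes) and 1 with the sequencing set as a covariate (2.86% against 3.50%). Gbp7, Oas2, Samd9l, Trim30a and Ddx60 kept their obese call under all 13 alternatives, with adjusted p-values of at most 0.044, whereas the other 7 lost it under at least 1. Gbp3 under 12 (up to 0.13), Stat2 under 11 (up to 0.18), Rnf213 under 10 (up to 0.16), Sp100 under 9 (up to 0.17), Herc6 under 9 (up to 0.21), Trim30d under 8 (up to 0.25) and Parp9 under 4 (up to 0.24) kept it, with the highest adjusted p in brackets. Oas2 kept its WL call under all 13, and Gbp7 and Ddx60 under 8. In fits chosen after the data were seen, PVM nuclei alone gave 1 call in obese and 0 in WL, and nuclei of neither kind 6 in obese and 3 in WL, all of them higher, where the calls over all macrophage-gated nuclei were 11 lower and 1 higher in obese and 3 lower in WL. The summed ratio in PVM nuclei alone, not among the 102 values, was above 0 for H against C (0.38), HHC against CCC (0.66) and HCH against CCH (0.26). It was 0.09 for HH against CC, with an interval that spans 0. For HC against CC (-0.21) and CCH against CC (-0.30) it stayed below 0. Of single genes, the change turned in PVM nuclei for Oas2 (0.20), Ddx60 (0.45) and Rnf213 (0.22) in obese and Ddx60 (0.73) in WL. In nuclei of neither kind it turned for Sp100 (0.41), Oas2 (2.18), Herc6 (0.15), Trim30a (0.42), Trim30d (0.69), Ddx60 (2.05), Stat2 (0.31) and Parp9 (0.32) in obese, and for Gbp7 (0.29), Oas2 (1.83) and Ddx60 (2.46) in WL. These fits use fewer nuclei, and the cause of the turned changes was not tested. Isg15, Ifit1 and Ifi44 rest on few UMIs, and a member with 0 UMIs in CC could have had up to 17.9 CPM there.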

Other observations

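Lymphocyte-gated nuclei were few and were not fitted, and they are given as values, with exact Poisson 95% intervals in brackets. In T or NK nuclei the summed level of the 35 genes was highest in H, at 2994 (2622 to 3404) CPM on 56 nuclei, and lowest in CCH, at 1876 (1677 to 2093). C and CCC stood at 2103 (1825 to 2411) and 2556 (2208 to 2944), HH at 2408 (2194 to 2638), and HC and HHC at 1977 (1577 to 2448) and 2380.3 (2169 to 2607). HCH stood at 2493 (2268 to 2734), and CC had 0 such nuclei. In B nuclei the level was 1684 and 2060.0 CPM in C and CCC, 2482 and 2394 in H and HH, 1897 and 2009.9 in HC and HHC, and 1731 and 2082 in CCH and HCH, on 22 to 164 nuclei each. The 7 macrophage markers outside the gate were also higher in H and HH than in C and CCC. Their sum in T or NK nuclei was 123 and 159 CPM in C and CCC, 3354 and 4151 in H and HH, 824 and 1986 in HC and HHC, and 372 and 2299.9 in CCH and HCH, and in B nuclei 168 in C and 2953 in H. In macrophage-gated nuclei it was 592 in C and 4224 in H. The part of macrophage RNA in the lymphocyte levels was not tested.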
